A study of Mus musculus with 2 samples.

Results

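The 40 genes described here are genes of the cell cycle, measured in single cells other than cardiomyocytes from the ventricles of 2 C57BL/6 mice, wild-type and 10 to 12 weeks old. They were taken by symbol from a table of 27998 genes, and all 40 were present in both mice. Of them, 24 act mainly in G2 and mitosis, 15 act in S phase, and Stmn1 was placed in neither set. Hearts were perfused and dissociated, the atria were removed, myocytes were pelleted away and red cells lysed, and cells that excluded 7-AAD, a dye that enters dead cells, were sorted. Each heart gave 1 library of the 10x Genomics 3' chemistry, version 2. No group was treated or mutated: the comparisons are between cell classes of the same 2 animals.

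Classes were gates on the counts of unique molecular identifiers (UMIs, 1 per captured RNA molecule). Macrophages had at least 15 UMIs of C1qa, C1qb and C1qc together (2993 cells in mouse 1 and 2361 in mouse 2), and fibroblasts at least 5 of Dcn (1864 and 1307). Endothelium had at least 2 of Pecam1, Cdh5 and Egfl7 (962 and 1300). Dendritic cells had at least 1 of Cd209a with no more than 10 of the C1q genes (9 and 25). T cells had at least 2 of Cd3d, Cd3e and Cd3g (101 and 86). A cell that met several gates (156 and 96) or none (523 and 512) entered no class.

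A dividing cell first copies its DNA in S phase and then, after the gap called G2, separates the copies in mitosis (M). The S members load and drive the replication machinery (the Mcm2 to Mcm7 helicase, the Pcna clamp), make deoxynucleotides (Rrm1, Rrm2, Tyms) or follow the fork. The G2/M members condense and hold chromosomes, build the spindle and set the order of mitosis through Cdk1, its cyclins and the anaphase-promoting complex. In the adult heart most non-myocytes are held to rest outside the cycle, and resident macrophages are known to renew partly by local division.

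The files held 7732 and 6367 barcodes with 21355383 and 15174548 UMIs, and 6608 and 5687 cells remained after filters, with median depths of 2542.5 and 2194 UMIs. The libraries shared 65 barcodes, 52 of them among the kept cells. Each class carried its own check markers, which the gates did not use: summed over the markers, 2946 and 2695 UMIs per 1000000 in macrophages, 34087 and 43129 in fibroblasts, 25314 and 27335 in endothelium, 75273 and 54442 in dendritic cells, and 1546 and 1486 over the 4 of 6 T cell markers found in the table. The dendritic check markers also summed to 22394 and 31678 in macrophages. Of 6 macrophage check markers 3 and 5 were also found in the dendritic gate (summed 122 and 301), with Mertk at 0 in both mice. Markers of natural killer cells were found in the T gate, mostly as Nkg7 (300 and 296 UMIs, in 74.3% and 74.4% of its cells), while Ncr1 was found in 2 and 6 cells. In the T cells with 3 or more G2/M members, Nkg7 was found in 13 of 14 and 8 of 8 and Ncr1 in none. Neutrophil markers were higher in mouse 1 in all 5 classes (73.4 to 676 against 0 to 22.2 in mouse 2). The part of these differences in the results below was not tested.

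The S and G2/M members differ in the letters of their promoters, so a few are shown first. RefSeq promoters of build GRCm38.p6, from 250 bases before to 50 after the start of a gene, were given for 32 of the 40 members (20 G2/M and 12 S). Ccna2, Tpx2, Aurkb, Kif20a, Mcm4, Gins2, Hist1h2ap and Stmn1 had none. The search, on both strands, was for CCAAT (the NF-Y box), for TTTGAA (the core of the cell cycle homology region of late cell cycle genes), and for the E2F forms TTTGGCGC, TTTCGCGC and TTTCCCGC. The 250 bases before the start are printed 5′ to 3′ on the gene's strand with the matches in capitals, a reverse-strand match appearing as its complement. A pair of E2F matches overlaps in Mcm5 and in Mcm6, and a pair of CCAAT matches on opposite strands in Ube2c.
Top2a: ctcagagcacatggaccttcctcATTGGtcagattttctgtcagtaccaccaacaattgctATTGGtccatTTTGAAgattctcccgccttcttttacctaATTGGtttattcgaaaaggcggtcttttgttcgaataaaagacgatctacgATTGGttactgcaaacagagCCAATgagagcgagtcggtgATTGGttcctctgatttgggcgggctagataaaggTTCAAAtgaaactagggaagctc
Cdk1: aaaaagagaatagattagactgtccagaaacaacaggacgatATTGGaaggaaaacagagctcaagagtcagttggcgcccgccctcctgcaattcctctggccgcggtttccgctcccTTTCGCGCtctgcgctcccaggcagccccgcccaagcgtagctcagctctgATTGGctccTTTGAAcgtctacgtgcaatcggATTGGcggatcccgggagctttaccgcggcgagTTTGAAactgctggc
Ube2c: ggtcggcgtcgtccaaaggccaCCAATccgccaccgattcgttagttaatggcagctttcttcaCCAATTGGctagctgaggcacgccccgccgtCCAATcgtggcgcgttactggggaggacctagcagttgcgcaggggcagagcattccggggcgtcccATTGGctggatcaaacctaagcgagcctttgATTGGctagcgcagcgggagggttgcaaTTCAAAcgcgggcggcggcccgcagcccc
Mcm5: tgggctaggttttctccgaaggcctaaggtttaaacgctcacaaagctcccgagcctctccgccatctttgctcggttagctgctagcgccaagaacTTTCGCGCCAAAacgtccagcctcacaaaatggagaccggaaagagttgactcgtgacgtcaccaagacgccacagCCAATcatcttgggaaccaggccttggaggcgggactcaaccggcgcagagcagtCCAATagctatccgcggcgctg
Mcm6: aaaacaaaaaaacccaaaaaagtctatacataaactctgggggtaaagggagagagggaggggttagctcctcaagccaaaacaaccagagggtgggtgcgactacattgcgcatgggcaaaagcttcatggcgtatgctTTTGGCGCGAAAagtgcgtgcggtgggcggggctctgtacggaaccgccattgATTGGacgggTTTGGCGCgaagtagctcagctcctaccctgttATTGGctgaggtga
These lie at chr11:99024190-99024439, minus strand (Top2a), chr10:69352913-69353162, minus strand (Cdk1), chr2:164769679-164769928, plus strand (Ube2c), chr8:75109259-75109508, plus strand (Mcm5) and chr1:128359706-128359955, minus strand (Mcm6).

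TTTGAA was found in 15 of 20 G2/M members (75.0%) and in 1 of 12 S members (8.33%, Mcm2), beside 17.9% of all 32851 promoters in the table. Counted from the start of the gene, it begins at -179 and -23 in Top2a, at -71 and -15 in Cdk1 and at -29 in Ube2c. In Cenpf (3), Kif23 (3), Hmmr (9), Cenpa (17), Plk1 (31), Aurka (33) and Bub1b (41), TTTGAA was found only after the start, outside the stretch of the kind printed above. Any E2F form was found in 7 of 12 S members (58.3%: Mcm3, Mcm5, Mcm6, Mcm7, Hells, Uhrf1 and 2810417H13Rik) and in 1 of 20 G2/M members (5.00%, Cdk1), beside 1.84% of all promoters. CCAAT was found in 18 of 20 G2/M members (90.0%) and 10 of 12 S members (83.3%), beside 37.4% of all. Prc1, Mcm7 and Uhrf1 have 2 promoters in the table and were counted once if either matched. A match describes these letters and shows no bound factor.

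Levels are the UMIs of a gene per 1000000 UMIs of a class in 1 mouse (CPM; mouse 1 first, then mouse 2). They are not divided by gene length, since each molecule is counted from its 3' end. Summed over the 24 G2/M members, the level was 253 and 376 in macrophages, 15.9 and 121 in fibroblasts, 163 and 306 in endothelium, 73.4 and 688 in dendritic cells and 1625 and 1995 in T cells. Over the 15 S members it was 233 and 312, 131 and 151, 244 and 250, 709 and 1258 and 2292 and 1209 in the same order. T cells were highest for G2/M in both mice, and fibroblasts lowest for both sets in both mice. The mice differed most in dendritic cells for G2/M, which rest on 9 and 25 cells, and in T cells for S. For S the 2 mice of endothelium (244 and 250) and of macrophages (233 and 312) overlapped.

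**Figure D1:**
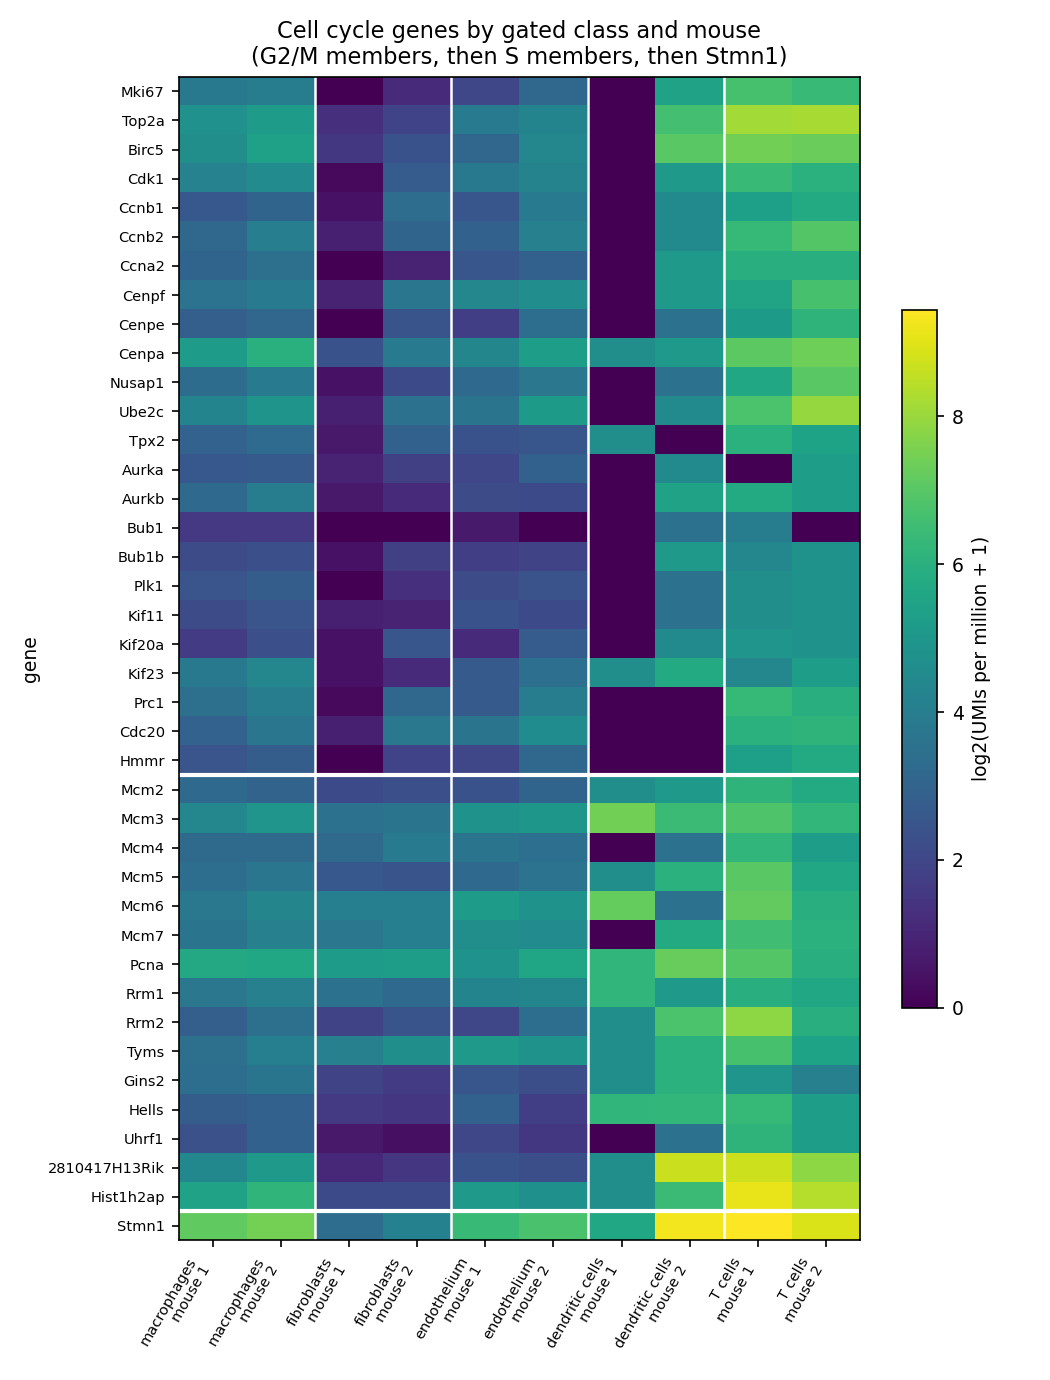
Heat map of the level of each of the 40 genes (rows) in each class and mouse (columns), as log2 of CPM plus 1, with white lines between the G2/M members, the S members and Stmn1. Dark cells are low. Summed over the G2/M rows, the level is lowest in the fibroblasts of both mice and in the 9 dendritic cells of mouse 1. Single rows depart from this. Ccnb1, Kif20a and Cdc20 in the fibroblasts of mouse 2 lie above both mice of macrophages, and Prc1, Cdc20 and Hmmr are at 0 in the dendritic cells of both mice. Pcna lies between 28.1 and 151 CPM in all 10 columns.

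Among the mitotic genes, Mki67, which coats condensed chromosomes and is the usual stain for proliferation, stood at 13.2 and 14.7 CPM in macrophages. It was at 2.99 and 8.15 in endothelium, 0 and 43.0 in dendritic cells and 104 and 81.3 in T cells. Fibroblasts held 0 and 4 Mki67 UMIs (0 and 1.21 CPM, where 3 UMIs would be 0.567 and 0.907). T cells stood above all other classes in both mice, and the fibroblasts of both mice lay below both mice of macrophages and of endothelium. Top2a, which untangles sister chromosomes, had 26.3 and 35.9 in macrophages, 1.51 and 2.72 in fibroblasts, 13.8 and 18.2 in endothelium, 0 and 96.8 in dendritic cells and 282 and 293 in T cells. As for Mki67, T cells were highest, then macrophages, endothelium and fibroblasts, with no overlap among these 4 classes, while dendritic cells ranged from 0 to above macrophages. Cdk1, the kinase that starts mitosis, had 17 and 22.5, 0.189 and 5.74, 13.2 and 17.7, 0 and 32.3 and 84.0 and 65.1 in the same order of classes. Its partner Ccnb1 (cyclin B1) had 4.99 and 7.29, 0.378 and 9.37, 4.79 and 13.9, 0 and 21.5 and 39.5 and 54.2. For Ccnb1 the ranges of macrophages, fibroblasts and endothelium overlapped, while T cells lay above them.

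Among the S members, Pcna, the sliding clamp of DNA polymerase, lay between 28.1 and 51.4 in the 3 large classes: 51.4 and 48.0 in macrophages, 34.9 and 37.8 in fibroblasts and 28.1 and 46.5 in endothelium. It was at 73.4 and 151 in dendritic cells and 119 and 59.6 in T cells. Mcm5, a subunit of the replicative helicase, had 9.66 and 12.0 in macrophages, 5.10 and 4.53 in fibroblasts, 8.38 and 11 in endothelium, 24.5 and 64.5 in dendritic cells and 128 and 48.8 in T cells. Fibroblasts were lowest for Mcm5 in both mice, and the range of endothelium overlapped that of macrophages. Rrm2, the regulated subunit of ribonucleotide reductase, had 6.19 and 10.2, 2.83 and 4.53, 2.99 and 9.58, 24.5 and 108 and 227 and 59.6 in that order of classes. T cells of mouse 1 were far above those of mouse 2 for Rrm2. 2810417H13Rik (Pclaf in RefSeq, a factor that binds the Pcna clamp) had 20.2 and 33.1 in macrophages, 1.13 and 1.81 in fibroblasts and 4.19 and 3.83 in endothelium. It reached 24.5 and 409 in dendritic cells and 425 and 228 in T cells. Endothelium lay between fibroblasts and macrophages for this gene in both mice.

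Hist1h2ap, a replication-dependent H2A histone, had 43.0 and 71.3 in macrophages, 3.40 and 3.32 in fibroblasts, 32.9 and 25.9 in endothelium, 24.5 and 86.0 in dendritic cells and 558 and 336 in T cells. Its value is uncertain, because near-identical histone copies can share reads. Stmn1 (stathmin, which takes microtubules apart) was by the mean of the mice the highest member in macrophages (140 and 175), endothelium (81.4 and 104), dendritic cells (48.9 and 624) and T cells (697 and 477). In fibroblasts it had 9.25 and 16.9. In fibroblasts the 4 highest members were instead Pcna, Tyms (thymidylate synthase; 16.4 and 24.8), Mcm6 (16.1 and 16.0) and Mcm7 (12.5 and 16.0), all from the S set. In macrophages Stmn1, Hist1h2ap, Cenpa (the centromere histone; 36.3 and 63.5) and Pcna led. The other leading members were Mcm6 (35.3 and 27.8) and Tyms (32.9 and 27.3) in endothelium beside Stmn1 and Pcna, and Mcm3 (171 and 86.0) in dendritic cells beside Stmn1, 2810417H13Rik and Pcna. T cells were led by Stmn1, Hist1h2ap, 2810417H13Rik and Top2a.

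Within single cells the G2/M members were detected together. Of 12295 kept cells, 10737 held none of the 24, 1236 held 1, 110 held 2, 15 held 3, 6 held 4 and 191 held 5 or more. The S members had a longer slope, with 8591, 2876, 520, 112, 32 and 164 cells at the same steps. Cells with 3 or more G2/M members numbered 100 in mouse 1 and 112 in mouse 2, and 80 and 75 of them also held 3 or more S members. Such cells were deeper (median 5018 and 4736 UMIs against 2464 and 2108 in cells with no G2/M member). Before doublet removal 106 and 114 cells were of this kind, of which Scrublet called 6 (5.66%) and 2 (1.75%) doublets, against 5.77% and 4.18% of all cells. The part of depth in co-detection was not tested on these counts.

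**Figure D2:**
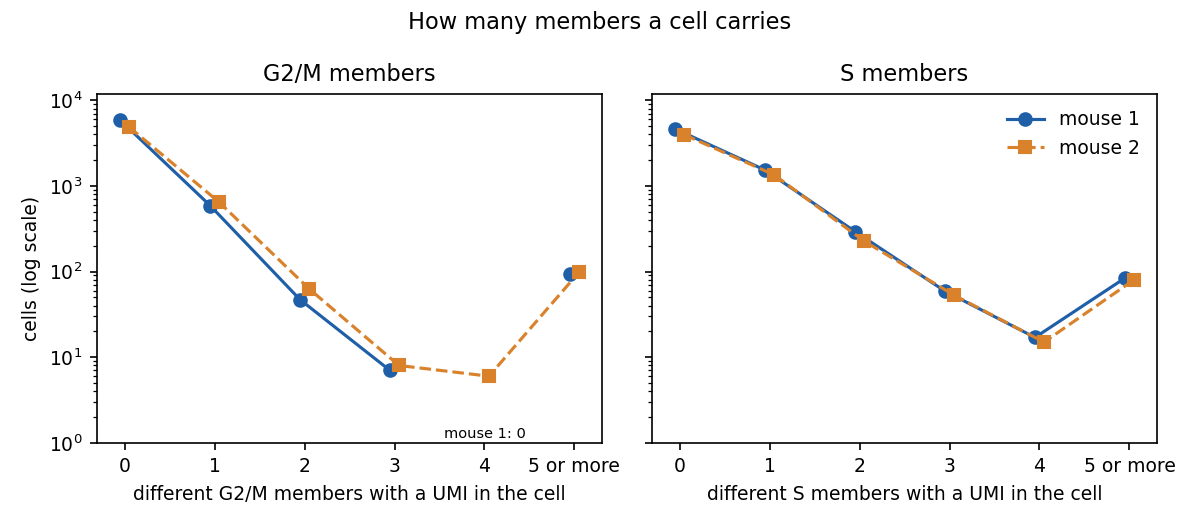
Number of kept cells (vertical, log scale) by the number of different G2/M members (left) or S members (right) with a UMI in the cell, for each mouse. The G2/M counts fall to 7 and 8 cells at 3 members and 0 and 6 at 4, with 93 and 98 at 5 or more, while the S counts fall to 17 and 15 at 4 and reach 84 and 80.

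Mki67 had a UMI in 79 and 85 cells, of which 86.1% and 85.9% held 2 or more other G2/M members, against at most 2.22% and 3.08% of all cells, whichever member was left out. With Top2a it shared 64 of 79 and 63 of 85 of its cells. Hmmr, a spindle-assembly protein, was detected with 2 or more other G2/M members in 97.4% and 95.7% of its cells, and Ccna2 (cyclin A2) in 90.6% and 96.9%. The exceptions were Cenpa (20.1% and 18.6%) and Kif23, a kinesin of cytokinesis (38.2% and 44.3%). The median over the 24 members was 77.4% and 80.4%.

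The S members divided in this respect. Pcna had a UMI in 688 and 535 cells (10.4% and 9.41%), and only 15.0% and 15.5% of them held 2 or more other S members. Among helicase subunits the share was 25.2% and 22.4% for Mcm6, 22.7% and 26.1% for Mcm3 and 44.4% and 41.5% for Mcm5. Mcm5 and Mcm6 were found together in 34 and 25 cells, out of 133 and 130 cells with Mcm5. 2810417H13Rik stood at the other end at 74.8% and 73.8%, with Uhrf1 (64.2% and 76.5%) and Rrm2 (64.1% and 67.9%) next to it. Rrm2 and 2810417H13Rik shared 44 and 48 cells, out of 78 and 81 cells with Rrm2. The median over the 15 S members was 41.0% and 41.5%, beside at most 6.72% and 6.49% of all cells.

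The share of a gene's UMIs that lay in cells with 3 or more other G2/M or 3 or more other S members set the same genes apart. It passed 70% in both mice in 22 of 24 G2/M members (not in Kif23 or Cenpa) and in 3 of 15 S members (Rrm2, 2810417H13Rik and Hist1h2ap). For 9 of 15 S members it was under 50% in both mice. The share was 94.3% and 93.4% for Mki67, 92.0% and 94.1% for 2810417H13Rik, 65.7% and 69.1% for Stmn1 and 18.1% and 21.1% for Pcna. In cells without 3 other members, Pcna kept a level of 42.6 and 39.3 in macrophages, 34.4 and 38.1 in fibroblasts and 27.2 and 44.7 in endothelium. Mki67 in such cells had 0.810 and 0.823, 0 and 0.613 and 0.619 and 0.987. The level of Pcna outside these cells was thus of like size in the 3 large classes, and that of Mki67 rested on 7 and 5, 0 and 2 and 1 and 2 UMIs.

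**Figure D3:**
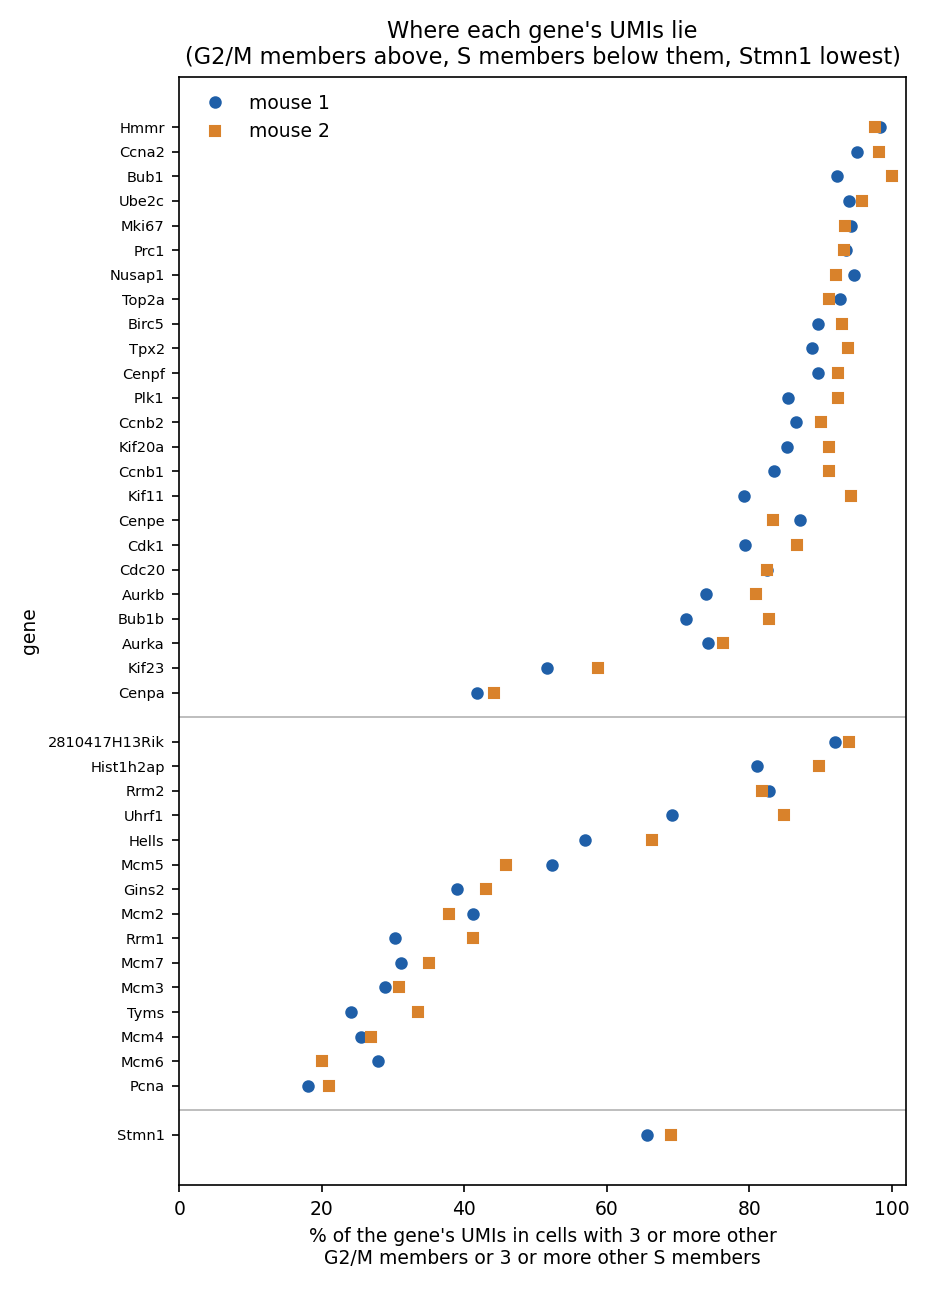
Percent of each gene's UMIs (horizontal) that lie in cells with 3 or more other G2/M members or 3 or more other S members, for each gene (vertical) and mouse. Cenpa (41.8% and 44.2%) and Kif23 stand left of the other G2/M members, and 2810417H13Rik, Hist1h2ap and Rrm2 stand right of the other S members.

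To compare classes of unequal depth, each cell was thinned to 1000 UMIs, which left out 9 and 48 macrophages, 13 and 40 fibroblasts, 51 and 187 endothelial cells, 1 and 1 T cells and no dendritic cell. At least 3 G2/M members were then found in 1.74% (95% interval 1.30% to 2.28%) of macrophages in mouse 1 and 2.25% (95% interval 1.68% to 2.94%) in mouse 2. In T cells the share was 10.0% (95% interval 4.90% to 17.6%) and 8.24% (95% interval 3.38% to 16.2%). In endothelium it was 0.549% (95% interval 0.178% to 1.28%) and 0.809% (95% interval 0.370% to 1.53%). Fibroblasts had 0 of 1851 cells (95% interval 0% to 0.199%) and 0.158% (95% interval 0.0191% to 0.569%). Dendritic cells had 0 of 9 (95% interval 0% to 33.6%) and 4.00% (95% interval 0.101% to 20.4%). The exact binomial intervals cover counting error only, and those of T cells lay above those of macrophages, which lay above those of endothelium and fibroblasts, in both mice. Thinned to 2000 UMIs, macrophages (2.42%, interval 1.85% to 3.11%, and 3.01%, 2.27% to 3.91%) and endothelium (2.21%, 0.722% to 5.09%, and 2.73%, 1.11% to 5.55%) overlapped, and T cells had 40.6% and 20.6%. That depth left out 736 of 962 and 1044 of 1300 endothelial cells, 69 of 101 and 52 of 86 T cells, and 558 and 565 macrophages. With 2 mice no test between classes was made, since an exact permutation of 2 against 2 cannot go below 0.333.

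For S members the thinned shares were 0.871% (95% interval 0.570% to 1.27%) and 1.47% (95% interval 1.02% to 2.05%) in macrophages and 11% (95% interval 5.62% to 18.8%) and 8.24% (95% interval 3.38% to 16.2%) in T cells. Endothelium had 0.110% (95% interval 0.00278% to 0.610%) and 0.449% (95% interval 0.146% to 1.05%). No fibroblast of either mouse reached 3 S members (95% intervals up to 0.199% and 0.291%). Dendritic cells had 0 of 9, and in mouse 2 5 of 25, or 20.0% (95% interval 6.83% to 40.7%). Without thinning the G2/M shares were 2.24% and 2.96% in macrophages, 0% and 0.153% in fibroblasts, 0.624% and 0.769% in endothelium, 0% and 12.0% in dendritic cells, and 13.9% and 9.30% in T cells. The unthinned S shares were 3.31% and 3.73%, 0.590% and 0.689%, 1.25% and 1.08%, 22.2% and 20.0%, and 15.8% and 11.6% in the same order. By number, macrophages made up 67 of 100 and 70 of 112 cells with 3 or more G2/M members, and T cells 14 and 8. Cells that met several gates gave 11 and 3, and cells of no gate 2 and 16.

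**Figure D4:**
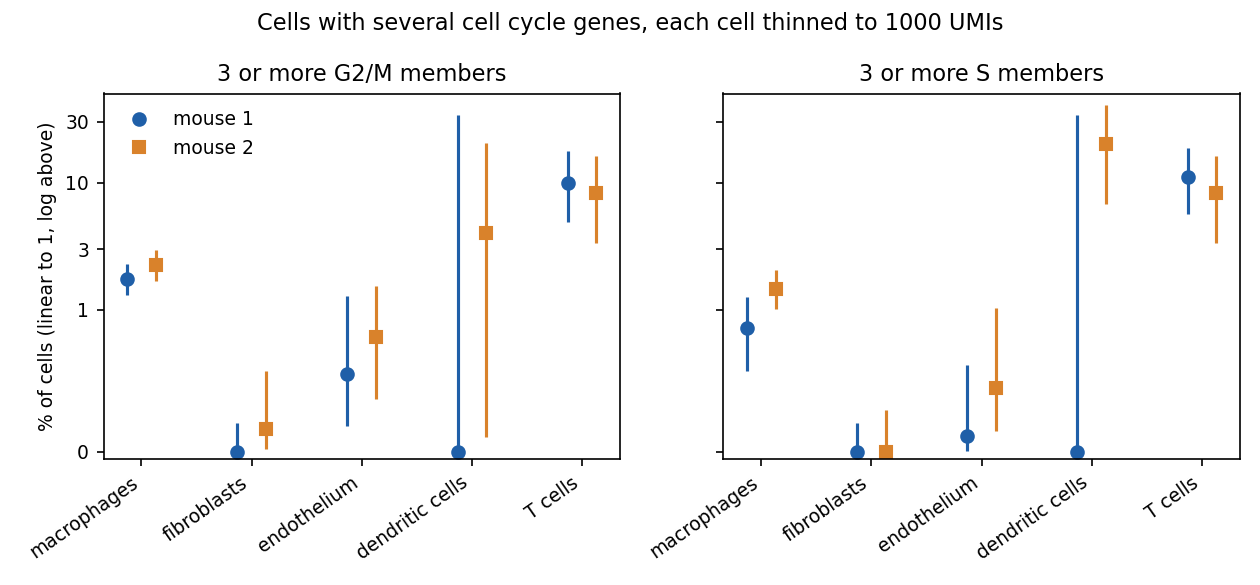
Percent of cells with 3 or more G2/M (left) or S (right) members after thinning to 1000 UMIs, by class and mouse, with exact 95% binomial intervals; the axis is linear up to 1% and logarithmic above. T cells stand highest for G2/M at 10.0% and 8.24%, and the intervals of dendritic cells (9 and 25 cells) are the widest.

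The G2/M level of a class therefore rested largely on few cells. The fibroblasts and dendritic cells of mouse 1 were exceptions, with no cell of 3 or more G2/M members. In the fibroblasts of mouse 2, 1 cell held 319 of 400 G2/M UMIs (79.8%), and in cells with fewer than 3 members the level was 15.9 and 23.4 CPM. In endothelium 6 and 10 cells held 75.7% and 83.5% of the G2/M UMIs. In macrophages 67 and 70 cells held 79.7% and 78.0%. T cells had 14 and 8 such cells with 94.5% and 95.1%. For S members the shares held by cells with 3 or more were 52.1% and 62.5% in macrophages. They were 93.5% and 82.1% in T cells and 89.7% and 95.7% in dendritic cells. In endothelium they were only 25.7% and 19.8%, and in fibroblasts 7.20% and 6.40%, so most S UMIs of these classes lay in other cells. The ratio of S to G2/M UMIs was 0.922 and 0.831 in macrophages, 8.26 and 1.25 in fibroblasts, 1.5 and 0.817 in endothelium, and 1.41 and 0.606 in T cells. Dendritic cells had 9.67 and 1.83, above both mice of every class but fibroblasts. The 9.67 is 29 S over 3 G2/M UMIs in 9 cells, too few to rank the class, and the 1.83 is 117 over 64. The ranges of macrophages, endothelium and T cells overlapped.

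Inside cells with 3 or more other members, the level of 2810417H13Rik also ranged widely between classes. In those of macrophages (113 and 112 cells) it had 306 and 407 CPM, in those of T cells (18 and 11) 1287 and 928, and in those of endothelium (12 and 19) 59.1 and 79.9. Top2a in such cells had 403 and 429 in macrophages and 402 and 480 in endothelium, and the 2 classes overlapped. Rrm2 had 87.2 and 118 in macrophages and 18.3 and 256 in endothelium. The endothelial values of 2810417H13Rik rest on 3 and 5 UMIs. In such endothelial cells of mouse 1, 4 Mki67 UMIs made 73.1 CPM, so the 18.3 of Rrm2 rests on fewer UMIs still. The difference among these cells was not tested.

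UMIs were then summed per class and mouse and compared with edgeR's quasi-likelihood test, with mouse as a block. A gene was called at a Benjamini-Hochberg adjusted p under 0.05 over the 11499 genes tested and a log2 fold change of at least 1, and all 40 members were tested. The sum does not separate the number of dividing cells from the RNA per cell. Macrophages against fibroblasts gave 31 members higher in macrophages and none higher in fibroblasts, beside 15.0% and 23.5% of all genes tested called in those directions. At an unadjusted p under 0.05 edgeR gave 1 member higher in fibroblasts, and DESeq2 called 0. The 31 were 21 of 24 G2/M members, 9 of 15 S members and Stmn1. The median log2 fold change was 2.36 over G2/M and 1.2 over S members, beside -0.27 over all genes tested. Mki67 had 122 and 97 UMIs in macrophages and 0 and 4 in fibroblasts (log2 fold change 4.82 ± 0.52 SE, edgeR adjusted p = 1.41e-14). Kif23 had 120 and 131 against 2 and 4 UMIs (log2 fold change 4.48 ± 0.45 SE, edgeR adjusted p = 5.78e-16). 2810417H13Rik (log2 fold change 4.22 ± 0.37 SE, edgeR adjusted p = 3.42e-19) and Hist1h2ap (log2 fold change 4.11 ± 0.27 SE, edgeR adjusted p = 1.26e-27) had the largest difference among S members. Ccna2 was called on 66 and 68 against 0 and 3 UMIs (pooled ratio 24.3, 95% interval 8.15 to 120), the 3 lying in 1 cell. Intervals of pooled ratios, here and below, take UMIs as independent and cover counting error only, not the spread between cells or mice. Bub1, a spindle checkpoint kinase, had 31 UMIs against 0, at least 5.63-fold higher in macrophages against a floor of 3 UMIs over both mice. Not called were the G2/M members Ccnb1 (0.76 ± 0.41 SE), Kif20a and Cdc20, and the S members Mcm4, Mcm6, Mcm7, Pcna, Rrm1 and Tyms. Mcm6 (0.03 ± 0.25 SE) and Mcm7 (0.01 ± 0.25 SE) lay near 0. The 2 mice of fibroblasts differed widely in these G2/M members: Ccnb1 had 2 and 31 UMIs, Kif20a 2 and 16 and Cdc20 4 and 42. In mouse 2, 1 fibroblast held 319 of the 400 G2/M UMIs, and 27 of the 31 Ccnb1 UMIs lay in 10 cells with 3 or more other members.

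Macrophages against endothelium differed in fewer members: 8 were higher in macrophages and 1 in endothelium, beside 13.4% and 20.9% of all genes tested. The split of higher against lower was 6 and 2 with library-size scaling and 8 and 0 with DESeq2. The 9 calls became 5 with cells of several gates kept and 14 with no fold minimum. Higher in macrophages were 2810417H13Rik (log2 fold change 2.85 ± 0.38 SE, edgeR adjusted p = 1.36e-10), Aurkb, the kinase of the chromosomal passenger complex (log2 fold change 1.86 ± 0.46 SE, edgeR adjusted p = 2.78e-04), and Gins2, a helicase partner (log2 fold change 1.45 ± 0.43 SE, edgeR adjusted p = 0.00300). Mki67 (1.43 ± 0.39 SE), Birc5 (survivin, 1.37 ± 0.27 SE), Kif23 (1.23 ± 0.35 SE), Top2a (1.08 ± 0.25 SE) and Hist1h2ap (1.08 ± 0.22 SE) were the other 5. The Mki67 call was lost with DESeq2, and with cells of several gates kept, where its log2 fold change was 0.93. Tyms was higher in endothelium, 32.9 and 27.3 against 10.1 and 16.0 CPM (log2 fold change -1.10 ± 0.26 SE, edgeR adjusted p = 1.30e-04). Its call was lost in 5 of the 8 other settings, and the log2 fold change then lay between -1.02 and -0.76. The median log2 fold change was 0.49 over G2/M members and 0.43 over S members, beside -0.25 over all genes, and 31 of 40 members were not called.

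Fibroblasts against endothelium gave 21 members higher in endothelium and none higher in fibroblasts, beside 14.3% and 15.5% of all genes. These were 18 of 24 G2/M members, 2 of 15 S members (Mcm3 and Hist1h2ap) and Stmn1. The median log2 fold change was -1.98 over G2/M members (-1.91 without Bub1, which was at or under 3 UMIs in both classes) and -0.87 over S members, beside 0.02 over all genes. Ccna2 had 0 and 3 UMIs in fibroblasts and 8 and 14 in endothelium (pooled ratio 0.0596, 95% interval 0.0114 to 0.198). Mki67 (log2 fold change -3.39 ± 0.73 SE, edgeR adjusted p = 4.63e-05), Kif23 (log2 fold change -3.24 ± 0.61 SE, edgeR adjusted p = 2.66e-06) and Hist1h2ap (log2 fold change -3.03 ± 0.33 SE, edgeR adjusted p = 2.07e-14) followed. Top2a (-2.88 ± 0.40 SE) and Stmn1 (-2.81 ± 0.24 SE) were called too, and their mice did not overlap between the classes. Pcna (0.01 ± 0.22 SE) and Mcm4 (0.12 ± 0.36 SE) were near 0.

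T cells against macrophages gave 35 members higher in T cells and none higher in macrophages, beside 9.64% and 12.7% of all genes tested. They were 21 of 24 G2/M members, 13 of 15 S members and Stmn1, with medians of 2.49 (G2/M) and 2.50 (S) beside -0.14 over all genes. Rrm2 had 46 and 11 UMIs in T cells and 57 and 67 in macrophages (log2 fold change 3.99 ± 0.39 SE, edgeR adjusted p = 3.87e-16), or 227 and 59.6 against 6.19 and 10.2 CPM. 2810417H13Rik (log2 fold change 3.47 ± 0.26 SE, edgeR adjusted p = 1.21e-22), Uhrf1, which carries DNA methylation over to the new strand (log2 fold change 3.15 ± 0.56 SE, edgeR adjusted p = 1.85e-06), and Hells, a chromatin remodeler (log2 fold change 3.01 ± 0.51 SE, edgeR adjusted p = 6.10e-07), were the next S members. Top2a (log2 fold change 3.01 ± 0.24 SE, edgeR adjusted p = 5.85e-21) and Kif20a, a kinesin of the late spindle (log2 fold change 2.98 ± 0.77 SE, edgeR adjusted p = 0.00119), led the G2/M members. Not called were Aurka, Bub1 and Kif23 among G2/M members and Pcna (0.64 ± 0.31 SE) and Gins2 (0.90 ± 0.63 SE) among S members. With each cell thinned to 1000 UMIs, 14 members were called of 35 that could be tested, all higher in T cells. Kif23 had 19.8 and 38.0 CPM in T cells and 13 and 19.9 in macrophages, where 7.29 and 11.2 remained in cells without 3 other members.

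Dendritic cells against macrophages rest on 9 and 25 dendritic cells with 40891 and 92998 UMIs. Of the members 5 were higher in dendritic cells and none in macrophages, beside 1.67% and 4.08% of all genes. Hells had 3 and 7 UMIs in dendritic cells, 73.4 and 75.3 CPM against 5.86 and 6.69 (log2 fold change 3.29 ± 0.74 SE, edgeR adjusted p = 8.55e-04). 2810417H13Rik had 1 and 38 UMIs (log2 fold change 3.04 ± 0.39 SE, edgeR adjusted p = 6.71e-10), and the 38 of mouse 2 all lay in 5 cells. Rrm2 (log2 fold change 2.97 ± 0.72 SE, edgeR adjusted p = 0.00224), Mcm3 (log2 fold change 1.87 ± 0.50 SE, edgeR adjusted p = 0.00689) and Stmn1 (log2 fold change 1.05 ± 0.29 SE, edgeR adjusted p = 0.00901) were the others. For 2810417H13Rik and Stmn1 the mice of the 2 classes overlapped: the 9 cells of mouse 1 held 1 and 2 UMIs, and Stmn1 was at 48.9 and 624 CPM in dendritic cells and 140 and 175 in macrophages, so lower in mouse 1 and higher in mouse 2. No G2/M member was called by edgeR, and 0 of 24 had an unadjusted p under 0.05; the median was 0.44 over G2/M members and 1.60 over S members, beside -0.58 over all genes. Without the replicate block 3 members were called, and 1 after thinning, where the sign of Stmn1 turned (-0.02). The summed macrophage markers in this gate were given above (122 and 301 CPM, Mertk at 0).

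Dendritic cells against T cells gave 8 members higher in T cells and none in dendritic cells, beside 2.94% and 3.17% of all genes. They were 7 of 24 G2/M members and, of the S members, Hist1h2ap (log2 fold change -2.87 ± 0.44 SE, edgeR adjusted p = 1.56e-07). Ube2c, the ubiquitin carrier of the anaphase-promoting complex (pooled ratio 0.0850, 95% interval 0.0101 to 0.319), Nusap1, a spindle protein (pooled ratio 0.0850, 95% interval 0.00209 to 0.507), and Ccnb2 (pooled ratio 0.152, 95% interval 0.0178 to 0.588) were called on 1 or 2 UMIs in dendritic cells, all of mouse 2. Prc1, which bundles the central spindle, had 27 UMIs in T cells and 0 in dendritic cells, at least 3.11-fold lower in the latter. Cdc20, an activator of the anaphase-promoting complex, had 26 and 0, at least 3.00-fold lower. Both bounds use 3 UMIs over both mice as the floor. Top2a and Cenpa were the other 2 called. Without the replicate block 2 members were called, and in other settings 1 to 8. Among S members 2810417H13Rik (-0.42 ± 0.35 SE), Hells (0.29 ± 0.67 SE) and Mcm3 (0.10 ± 0.49 SE) were not called. The comparisons share classes (macrophages in 4, each other class in 2), so their counts are not independent of each other. Among fibroblasts against endothelium and the 3 comparisons with dendritic or T cells, where edgeR called no member in 1 direction, 0 members had an unadjusted p under 0.05 in that direction and DESeq2 called 0.

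**Figure D5:**
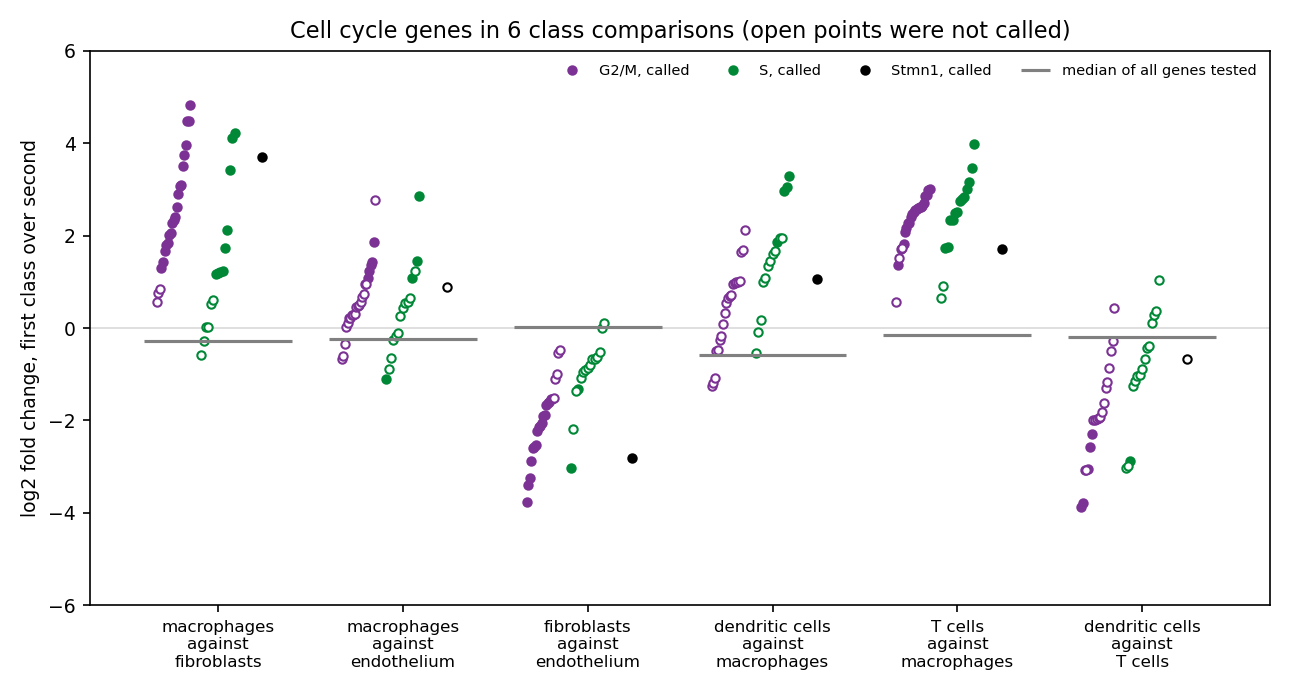
Log2 fold change of each member (points; filled where called) in the 6 comparisons, first class over second, with G2/M members at the left, S members in the middle and Stmn1 at the right of each group; grey bars give the median of the 11499 genes tested, and members with 0 UMIs in a class, or at or under 3 UMIs in both, are left out. The G2/M and S points of T cells against macrophages all lie above 0, and those of fibroblasts against endothelium lie at or below 0 except for Mcm4 (0.12) and Pcna (0.01).

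Other genes of the cycle were read from 5 lists of 78 genes in all. Of all genes tested, 15.0% were called higher and 23.5% lower in macrophages than in fibroblasts. Against endothelium the shares for macrophages were 13.4% and 20.9%, and for T cells against macrophages 9.64% and 12.7%. Of 25 checkpoint and kinetochore genes (22 tested), 16 were higher in macrophages than in fibroblasts and none lower, 7 were higher and 2 lower than in endothelium, and 12 were higher in T cells than in macrophages and none lower. Of these, Cdca3 had 128 UMIs in macrophages against 3 in fibroblasts (ratio 23.2, 95% interval 7.78 to 114). Espl1 (separase) had 7.60 and 12.6 CPM in macrophages and 0.599 and 1.44 in endothelium (log2 fold change 3.35 ± 0.63 SE, edgeR adjusted p = 2.37e-06). Cdc25b had 24 UMIs in T cells and 0 in dendritic cells, at least 2.77-fold lower in the latter. Cdca8 (3 dendritic UMIs, pooled ratio 0.184, 95% interval 0.0367 to 0.573) was also called between those classes. Kif4 had 1 UMI in fibroblasts and 11 in endothelium, a ratio of 0.0397 (interval 9.22e-04 to 0.273). Of 19 licensing and initiation genes (18 tested), 14 were higher in T cells than in macrophages and none lower, and 5 were higher and 2 lower in macrophages than in fibroblasts. Tk1 (thymidine kinase) had 5.32 and 9.12 in macrophages and 0.567 and 0.604 in fibroblasts (log2 fold change 3.52 ± 0.59 SE, edgeR adjusted p = 1.08e-07).

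The list of G1 cyclins and kinases, which also holds the Cdk1 subunit Cks2, was counted the same way. Of 11 G1 cyclins and kinases, none was higher and 2 lower in macrophages than in endothelium, and 2 higher and 1 lower than in fibroblasts. In fibroblasts 1 was higher and 5 lower than in endothelium. Against macrophages, 5 were higher in dendritic cells, and 6 higher and 1 lower in T cells. Over all genes tested, the higher and lower shares for macrophages were 13.4% and 20.9% against endothelium and 15.0% and 23.5% against fibroblasts. For fibroblasts against endothelium they were 15.5% and 14.3%. Against macrophages they were 1.67% and 4.08% for dendritic cells and 9.64% and 12.7% for T cells. Ccnd1 (cyclin D1) had 96.5 and 84.2 CPM in macrophages, 73.7 and 79.5 in fibroblasts, 266 and 258 in endothelium and 611 and 323 in dendritic cells, but 4.94 and 5.42 in T cells. Those T cell values are 2 UMIs in all, a ratio to macrophages of 0.0566 (interval 0.00684 to 0.205). Ccnd2 had 128 and 73.4, 103 and 103, 234 and 294, 416 and 172 and 499 and 699 in the same order, and was called higher in T cells than in macrophages (log2 fold change 2.36 ± 0.20 SE, edgeR adjusted p = 3.60e-19). Ccnd3 had 115 and 81.8, 91.8 and 88.5, 157 and 149, 318 and 258 and 321 and 363, and was called in the same direction (log2 fold change 1.58 ± 0.20 SE, edgeR adjusted p = 1.2e-10). T cells, the class highest in G2/M members, thus had the lowest Ccnd1 and the highest Ccnd2 by the mean of the mice. Ccne1 (cyclin E1) had 9 UMIs in T cells, all in mouse 1, and 4 in dendritic cells; both classes were called above macrophages (log2 fold change 4.29 ± 1.02 SE, edgeR adjusted p = 4.16e-04, and log2 fold change 4.62 ± 1.49 SE, edgeR adjusted p = 0.0404). Ccne2 had 5 UMIs in dendritic cells (log2 fold change 3.80 ± 1.18 SE, edgeR adjusted p = 0.0303). Cks2, a subunit of the Cdk1 kinase, was lower in dendritic than in T cells (log2 fold change -2.91 ± 0.63 SE, edgeR adjusted p = 4.43e-04), and Cks1b was higher in fibroblasts than in endothelium (log2 fold change 2.54 ± 0.24 SE, edgeR adjusted p = 1.12e-17).

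Among 10 inhibitors and pocket proteins (9 tested), 3 were higher and 2 lower in macrophages than in fibroblasts, and again 3 and 2 against endothelium. Of all genes tested, 15.0% and 23.5% were called in those directions against fibroblasts, and 13.4% and 20.9% against endothelium. In a list this short, counts near those shares are no result about the list. Cdkn1c (p57) had 32.8 and 43.2 CPM in macrophages, 117 and 160 in fibroblasts, 367 and 519 in endothelium, 0 and 0 in dendritic cells and 0 and 10.8 in T cells. Endothelium was called above macrophages (log2 fold change -3.41 ± 0.18 SE, edgeR adjusted p = 8.72e-36), and dendritic cells, with 0 UMIs, were at least 1.66-fold below macrophages. Cdkn1a (p21) had 495 and 376, 630 and 264, 2473 and 949, 587 and 64.5 and 54.3 and 32.5 in that order, with T cells called below macrophages (log2 fold change -3.67 ± 0.32 SE, edgeR adjusted p = 7.67e-19). The 2 mice differed widely for Cdkn1a in endothelium, fibroblasts and dendritic cells, mouse 1 being higher in each. Cdkn1b (p27) had 23.5 and 43.6, 53.5 and 71.0, 58.7 and 63.3, 24.5 and 75.3 and 54.3 and 119. Cdkn2a, which encodes p16 and p19Arf, had 12.1 and 16.1 in macrophages against 0.944 and 0.907 in fibroblasts (log2 fold change 3.88 ± 0.46 SE, edgeR adjusted p = 5.27e-13) and 1.2 and 1.44 in endothelium (log2 fold change 3.51 ± 0.55 SE, edgeR adjusted p = 1.72e-08). Macrophages were thus higher than fibroblasts in both this inhibitor and 31 of the 40 members.

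Of 13 transcription factors (11 tested), Mycn had 56.9 and 76.2 CPM in endothelium, 4.53 and 32.9 in fibroblasts and 0.543 and 0.912 in macrophages (log2 fold change -6.35 ± 0.37 SE, edgeR adjusted p = 2.62e-31, and against fibroblasts -4.30 ± 0.42 SE). Myc was higher in fibroblasts, 61.8 and 25.4 against 8.98 and 2.88 in endothelium (log2 fold change 2.94 ± 0.32 SE, edgeR adjusted p = 1.39e-14). E2f7, a repressor of the E2F family, had 1 UMI in fibroblasts and 26 in endothelium (ratio 0.0168, interval 4.10e-04 to 0.102). E2f2 was higher in T cells than in macrophages on 9 UMIs (log2 fold change 3.55 ± 0.92 SE, edgeR adjusted p = 0.00133). In all, 4 of the list were higher and 1 lower in macrophages than in fibroblasts, and 3 higher and 2 lower than in endothelium. In fibroblasts 1 was higher and 2 lower than in endothelium, and 1 was higher in T cells than in macrophages. Over all genes tested, the shares for macrophages were 15.0% and 23.5% against fibroblasts and 13.4% and 20.9% against endothelium. They were 15.5% and 14.3% for fibroblasts against endothelium, and 9.64% were higher in T cells than in macrophages. In a list this short, counts near those shares are no result about the list.

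Among 10039 genes outside the members with a UMI in at least 1% of cells, those most like the summed G2/M members across 12295 cells were Racgap1 (r = 0.421 and 0.420 in the 2 mice), Lockd (0.429 and 0.416) and Cdca8 (0.409 and 0.450). Asf1b, Spc25, Spc24, Cks2, Knstrn, Hmgb2 and Lmnb1 followed, with r from 0.285 to 0.361. Racgap1, Cdca8, Spc25, Spc24 and Cks2 are in the lists of other cycle genes above. The cells share a library and a depth, so these are descriptions with no test. For the summed S members no gene passed 0.234 in either mouse, the first being Asf1b (0.227 and 0.233), and such weak values in sparse counts are no finding.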

How the data were processed

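Gene by cell tables of UMI counts were deposited by the authors, 1 per mouse; per the submitters' processing notes FastQC and Cell Ranger 2.2.0 were used with build mm10, and the rule that chose the barcodes is not given in the sources used here. The deposited counts were used as they are. Cells with under 500 UMIs, under 300 genes or over 10% mitochondrial UMIs were removed (719 and 432), then Scrublet doublets (405 and 248; scanpy 1.11.5). UMIs were summed per gated class and mouse (10 columns) and tested with edgeR 4.0.16 (R 4.3.3; quasi-likelihood F test, TMM scaling, its own low-count filter, class plus mouse), with Benjamini-Hochberg adjustment over 11499 genes. All 5 classes shared 1 estimate of the spread, with 4 residual degrees of freedom. The script was tested on simulated data, with changes only in well-covered genes and only for macrophages against fibroblasts. That test did not cover genes of few UMIs or the dendritic and T cell comparisons.

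Mouse is a block because the classes come from the same animals: the difference between the mice correlated across genes at 0.327 to 0.390 between the 3 large classes, and at 1.46e-05 to 0.0953 in pairs with dendritic or T cells. With mouse as a block, p-values measure the scatter left after the shared difference between the 2 mice is taken out. The spread of each gene was drawn largely from the other genes tested (107.6 prior beside 4 residual degrees of freedom). Small p-values therefore do not measure how far such animals differ at large. Members, gene lists and tests were chosen with earlier results of these data known. Genes were named by rule: up to 6 called members per direction and comparison by size of log2 fold change, the 4 highest members of each class, 10 members followed in every class, up to 4 called genes of the other lists per comparison, and 6 regulators in every class. Alternatives were DESeq2 1.42.0, library-size scaling, no filter, no block, doublets kept, other gates, thinning and no fold minimum. Promoters came from RefSeq (GRCm38.p6).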

Additional observations from a re-analysis of the deposited data

How the results depend on the processing

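In every setting most called members of a comparison lay in the direction given above, and library-size scaling, no low-count filter, doublets kept and doubled gates left all 6 counts within 1.5 times. Macrophages against endothelium went from 9 members to 5 with cells of several gates kept and to 14 with no fold minimum. Dendritic cells against macrophages went from 5 to 3 without the replicate block and to 1 after thinning, and T cells against macrophages from 35 to 14 after thinning. Dendritic cells against T cells went from 8 to 2 without the replicate block, 4 with DESeq2, 3 with cells of several gates kept and 1 after thinning. Without the block the other 4 counts were 27, 9, 15 and 33. Thinning left 35 of 40 members that could be tested; for the other changes the cause was not tested. Over 36 named member results, 286 values were recomputed, of which 36 lost their call and 1 turned: Stmn1 in dendritic cells against macrophages, at -0.0245 (log2) after thinning. The median of all genes tested moved by over 0.1 (log2) between TMM and library-size scaling in macrophages against endothelium (-0.245 and -0.373), dendritic cells against macrophages (-0.583 and -0.267) and T cells against macrophages (-0.144 and 0.062). Leaving out a mouse leaves no residual degrees of freedom, so no count of calls was made.

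Mean shares of cells with 3 or more G2/M members were 2.00% in macrophages, 0.679% in endothelium, 2% in dendritic cells and 9.12% in T cells. Without thinning they were 2.60% in macrophages, 6.00% in dendritic cells and 11.6% in T cells. Thinned to 2000 UMIs they were 2.71% in macrophages, 2.47% in endothelium, 5.56% in dendritic cells and 30.6% in T cells, with most endothelial and T cells left out as too shallow and the intervals of macrophages and endothelium overlapping. At 2 or more members they were 2.46% in macrophages and 10.8% in T cells, and at 5 or more 1.34% and 5.85%. Doubled gates gave 0.896% in endothelium, and cells of several gates 0.8999% in endothelium and 6.61% in dendritic cells. For S members the unthinned shares were 3.52% in macrophages, 0.639% in fibroblasts, 1.16% in endothelium and 13.7% in T cells. Thinned to 2000 UMIs they were 2.24%, 0.0869%, 1.72% and 30.6% in that order, and at 2 or more members 2.71%, 0.773%, 2.11% and 14.5%. In mouse 1 alone macrophages lay below endothelium for S, at 1.81% and 2.65% when thinned to 2000 UMIs and 2.31% and 2.41% at 2 or more members. In mouse 2 they lay above, at 2.67% and 0.781%, and 3.11% and 1.80%. At 5 or more they were 0.338% in macrophages and 5.76% in T cells, and cells of several gates gave 0.116% in fibroblasts. Each mouse alone gave G2/M shares of 1.74% to 2.25% in macrophages, 0.549% to 0.809% in endothelium and 8.24% to 10.0% in T cells.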
